A study of Mus musculus with 12 samples.

Results

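The miR-30 family of microRNAs (miRNAs) was followed in the retina and sclera of mice with form-deprivation myopia. The members were all miRNA names on the array that begin with mmu-miR-30a-, mmu-miR-30b-, mmu-miR-30c-, mmu-miR-30d- or mmu-miR-30e-, whichever arm of the hairpin they come from. This gave 10 of the 696 mouse miRNA names, 5 from the 5p arm (mmu-miR-30a-5p, mmu-miR-30b-5p, mmu-miR-30c-5p, mmu-miR-30d-5p and mmu-miR-30e-5p) and 5 from the 3p arm (mmu-miR-30a-3p, mmu-miR-30b-3p, mmu-miR-30c-1-3p, mmu-miR-30c-2-3p and mmu-miR-30e-3p), written without the species prefix from here on. The rule itself uses names and no measured value. Of the 10, 9 were detected on all 12 arrays, and miR-30c-1-3p was detected on the retina arrays only.

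All samples came from C57BL/6J mice killed at postnatal day 34. A frosted diffuser, which blurs the retinal image, was worn over the right eye from postnatal day 24 for 10 days, and the untreated left eye of the same animals served as the control. The 4 groups were control retina, myopic retina, control sclera and myopic sclera, with 3 arrays each, and each array was hybridized with RNA from whole retina or sclera pooled from 3 eyes. The control eye is thus not from an untreated animal, and a pool hides the spread between mice, so that p-values measure the spread between pools. All mice had the same strain and age.

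MiRNAs are cut from hairpin transcripts, and either arm of the hairpin can yield a mature miRNA. The miRNA guides an Argonaute protein to mRNAs that pair with its seed, the bases near its 5′ end, and thereby lowers the stability and translation of those mRNAs. MiRNAs with the same seed have largely the same predicted targets, which is why they are grouped into families. The 5p arms are the main guides of the miR-30 family and share a seed, whereas the 3p arms carry other seeds and are usually the less abundant products. The family is expressed in many tissues, retina and connective tissue among them, and is known for restraining Snai1 and connective tissue growth factor, genes of epithelial-mesenchymal transition and of fibrosis.

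The mature sequences are shown to make clear which members share a seed and could share targets, and which differ so little that array probes might not tell them apart. RefSeq entries of the mouse assembly GRCm38.p6 matched 7 of the 10 names, and among the names that RefSeq matched, miR-384-5p was the only other one with the seed of the 5p arms. MiR-30b-5p, miR-30b-3p and miR-30d-5p are named only. The seed, bases 2 to 8, is in capitals.
miR-30a-5p: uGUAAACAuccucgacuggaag
miR-30c-5p: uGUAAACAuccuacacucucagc
miR-30e-5p: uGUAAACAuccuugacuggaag
miR-384-5p: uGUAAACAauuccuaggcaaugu
miR-30a-3p: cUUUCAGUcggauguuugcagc
miR-30e-3p: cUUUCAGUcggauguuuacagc
miR-30c-1-3p: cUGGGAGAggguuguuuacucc
miR-30c-2-3p: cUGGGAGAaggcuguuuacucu

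The 4 sequences from 5p arms have the seed GUAAACA. MiR-30a-3p and miR-30e-3p share the seed UUUCAGU, and both miR-30c 3p arms share UGGGAGA. MiR-30a-5p and miR-30e-5p differ by 1 base of 22, C13U, counted from 1 at the 5′ end with the base of miR-30a-5p first, and miR-30a-3p and miR-30e-3p differ by 1 base, G18A. Each probe for a miR-30a arm has 1 mismatch to the corresponding miR-30e arm and the reverse, so that cross-hybridization between these pairs cannot be told apart from their own signal. MiR-30c-1-3p and miR-30c-2-3p differ at 3 positions, G9A, U12C and C22U. The mature miR-30c-5p is the same from both of its hairpins, and its signal cannot be assigned to either.

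The hairpins lie in pairs on the chromosomes. Mature miR-30a-5p maps to chr1:23272274-23272295 and miR-30c-5p of the hairpin Mir30c-2 to chr1:23291714-23291736, both on the plus strand, with 19361 bases between the Mir30a and Mir30c-2 hairpins. On the minus strand of chromosome 4, miR-30c-5p of the hairpin Mir30c-1 maps to chr4:120769584-120769606 and miR-30e-5p to chr4:120772660-120772681. These hairpins are 2983 bases apart, and both lie within the span of Nfyc, the gene for a subunit of the transcription factor NF-Y.

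The level of a miRNA is given here as log2 of the total gene signal, in which the image analysis software adds up the fluorescence of the detected probes of a miRNA. Signals under 0.5 were set to 0.5 and the arrays were quantile normalized, so that a miRNA without a detected probe stands at -1. Retina arrays detected 353 to 401 miRNAs and sclera arrays 274 to 317, with the lowest number on control sclera array 3, whose median detected signal was 42.1 against 53.3 to 83.2 on the other sclera arrays. Every slide carried a pool of each group, always placed in the same order, and the place on the slide and the group therefore cannot be told apart. The tissues were checked with marker miRNAs. The summed log2 level of 5 miRNAs of retinal neurons and photoreceptors was 17.45 to 17.54 on the retina arrays and 11.18 to 13.84 on the sclera arrays, where all 5 were still detected on every array and control sclera 3 was the lowest. The corresponding sum of 5 miRNAs of fibroblasts and smooth muscle was 14.02 to 14.15 in sclera and 5.71 to 8.26 in retina, and miR-214-3p was at the floor on all retina arrays. In bulk tissue, fewer cells of a type and less RNA per cell cannot be told apart.

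All 5 members from the 5p arm were more abundant in the retina than in the sclera, in control and in myopic eyes alike. MiR-30b-5p had the widest gap and miR-30a-5p the narrowest. MiR-30b-5p stood at 11.56, 11.48 and 11.34 in control retina, 11.48, 11.48 and 11.56 in myopic retina, 9.91, 9.91 and 9.76 in control sclera and 9.78, 9.73 and 9.81 in myopic sclera. Every retina array was thus above every sclera array by more than a log2 unit, while control and myopic arrays of a tissue overlapped. In control eyes miR-30b-5p was 3.03-fold higher in the retina, a log2 difference of 1.60 ± 0.10 (SE), with an adjusted p of 7.8e-07 by limma. In myopic eyes the difference was 1.73 ± 0.10, with an adjusted p of 3.65e-07 by limma.

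In control eyes miR-30e-5p and miR-30c-5p followed, whereas in myopic eyes the order was miR-30c-5p, miR-30d-5p and miR-30e-5p. MiR-30e-5p stood at 10.86, 10.91 and 10.91 in control retina, 10.93, 10.91 and 10.86 in myopic retina, 9.76, 9.78 and 9.13 in control sclera and 9.73, 9.70 and 9.78 in myopic sclera. The low array is control sclera 3, the same array that was lowest for the neuronal miRNAs, and whether this has a part in the result was not tested. In the control eyes, miR-30e-5p was higher in the retina by 1.12 within pool 2 and by 1.78 within pool 3. MiR-30c-5p stood at 11.86 on all 3 control retina arrays, at 11.86, 11.80 and 11.86 in myopic retina, at 10.81, 10.46 and 11.07 in control sclera and at 10.36, 10.24 and 10.53 in myopic sclera. Equal values on several arrays arise because quantile normalization keeps the rank of a miRNA and replaces its value. The difference between control retina and control sclera was 1.33 ± 0.17 for miR-30e-5p and 1.08 ± 0.16 for miR-30c-5p (SE; adjusted p = 8.27e-05 and 0.000205, limma). Between myopic retina and myopic sclera it was 1.16 ± 0.17 for miR-30e-5p and 1.46 ± 0.16 for miR-30c-5p (SE; adjusted p = 0.000193 and 2.16e-05, limma).

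For miR-30d-5p the levels were 10.53, 10.46 and 10.13 in control retina, 10.53, 10.62 and 10.53 in myopic retina, 9.38, 9.38 and 9.54 in control sclera and 9.35, 9.30 and 9.35 in myopic sclera. Its difference between the tissues was 0.94 ± 0.13 in control eyes, just short of the fold of 2, and 1.23 ± 0.13 in myopic eyes (SE; adjusted p = 0.000128 and 1.71e-05, limma). MiR-30a-5p had levels of 11.80, 11.72 and 11.56 in control retina, 11.80, 11.72 and 11.72 in myopic retina, 11.07, 11.17 and 11.02 in control sclera and 10.91, 10.95 and 11.07 in myopic sclera. Retina and sclera arrays did not overlap for either miRNA, but miR-30a-5p was only 1.52-fold higher in control retina and 1.71-fold higher in myopic retina (adjusted p = 0.000944 and 0.000174, limma), under the fold of 2 that was required for a call.

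**Figure D1:**
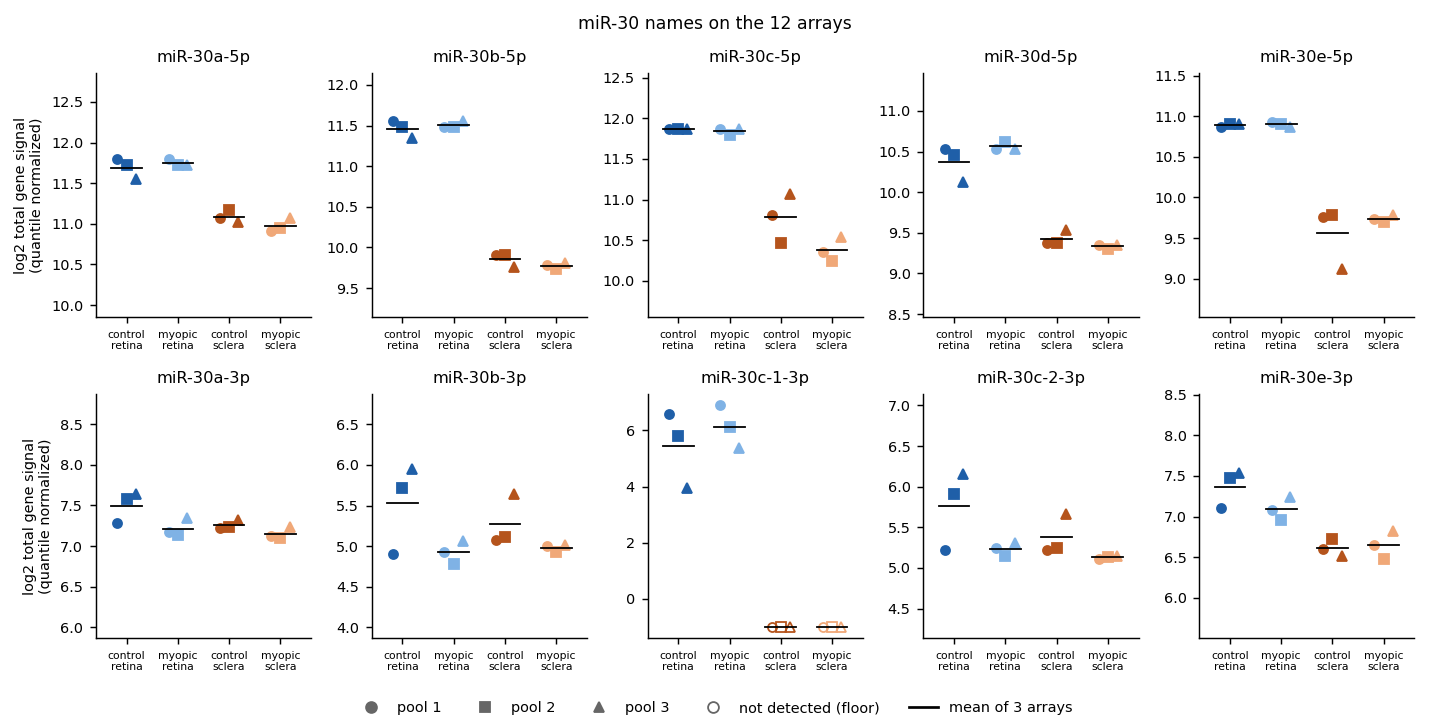
Levels of the 10 miR-30 names on each array: the y axis is log2 total gene signal after quantile normalization (each panel spans at least 3 log2 units), the x axis the 4 groups; symbols are pools 1 to 3, black lines are means of 3 arrays, and open symbols are miRNAs not detected, at the floor. The retina arrays lie above the sclera arrays for the 5 names from the 5p arm, miR-30c-1-3p is at -1 on all 6 sclera arrays, and the remaining 3p names differ less.

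A miRNA was called where the adjusted p-value was under 0.05 and the fold was 2 or more. In control eyes 4 of the 10 names were called, all higher in the retina (miR-30b-5p, miR-30c-5p, miR-30e-5p and miR-30c-1-3p). Of all 443 miRNAs tested, 50.6% were called in this comparison, and 27.5% were called as higher in the retina. With any fold, 7 names had an adjusted p-value under 0.05, all higher in the retina, against 34.8% of all miRNAs in that direction; in myopic eyes the number was also 7, against 38.6%. In myopic eyes 5 of the 10 names were called, the same 4 and miR-30d-5p, against 58.9% of all miRNAs called and 32.5% called as higher in the retina. MiR-30c-1-3p was detected only in the retina and entered all these counts with its sclera values at the floor. The groups did not overlap for 7 names in either comparison, which holds for 33.0% of all miRNAs in control eyes and 43.6% in myopic eyes counted in the same direction. The median difference was 1.08 for the 5 names from the 5p arm in control eyes and 0.30 for all miRNAs tested. In myopic eyes these medians were 1.23 and 0.36.

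The size of these differences depended on how arrays of the 2 tissues were put on a common scale. For the 246 miRNAs detected on every array, the median difference between control retina and control sclera was -0.24 after quantile normalization. When each array was instead divided by its 75th percentile over those 246 miRNAs, this median was 0.13, and without any normalization it was 1.17. Over all miRNAs tested, the calls in control eyes were 122 higher and 102 lower in the retina with quantile normalization, and 160 higher and 82 lower with 75th percentile scaling. Relative to this median, the names from the 5p arm were higher in the control retina by 0.85 to 1.84 with quantile normalization and by 0.67 to 1.45 with 75th percentile scaling. MiR-30b-5p was the highest and miR-30a-5p the lowest of the 5 under both. In myopic eyes the median was -0.32 with quantile normalization and 0.39 with 75th percentile scaling, and the names from the 5p arm were higher by 1.09 to 2.06 and by 0.43 to 1.31 relative to it.

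The members of the 5p arm were also compared with each other in their gap between retina and sclera. To compare them, the difference between each pair of miRNAs was taken within every array and the tissue labels were permuted within control and within myopic arrays (exact test, two-sided, 10 pairs, smallest possible p = 0.005; the pairs were chosen after the values had been seen). The difference in tissue gap between miR-30a-5p and miR-30b-5p was -0.98 on the log2 scale (adjusted p = 0.00833, exact permutation test). With 75th percentile scaling it was -0.83 (adjusted p = 0.01, exact permutation test). The gap of miR-30a-5p was also smaller than those of miR-30c-5p, miR-30d-5p and miR-30e-5p, by 0.40 to 0.58, and the gap of miR-30b-5p was wider than those of the same 3 miRNAs by 0.39 to 0.58, each with an adjusted p of 0.0214 or less in this exact test. Pools of a number share a slide and a mouse identifier, and when the signs of the differences were instead flipped within pools, none of the 10 pairs passed after adjustment. The adjusted p was then 0.0521 for 6 of these 7 pairs and 0.0781 for miR-30b-5p minus miR-30e-5p (exact paired permutation test, smallest possible unadjusted p = 0.0312), and 0.0625 to 0.0893 with 75th percentile scaling. Among miR-30c-5p, miR-30d-5p and miR-30e-5p the gaps differed by 0.19 or less and passed no test (adjusted p = 0.119 to 0.965, exact permutation test). Without control sclera 3, miR-30c-5p minus miR-30d-5p (0.25) and miR-30c-5p minus miR-30e-5p (0.22) had an adjusted p of 0.0389 and 0.0312 in the exact permutation test. For miR-30a-5p and miR-30e-5p, which differ at 1 base, the gaps differed by -0.56, with an adjusted p of 0.00833 in the unpaired and 0.0521 in the paired exact permutation test. Signal shared between the probes of these miRNAs was not tested. The paired and the unpaired test both treated the control and myopic arrays of a pool number as independent, so that their p-values may be too small.

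Differences between retina and sclera were smaller and less certain for the 3p arms. MiR-30e-3p stood at 7.10, 7.47 and 7.54 in control retina, 7.08, 6.95 and 7.24 in myopic retina, 6.61, 6.72 and 6.51 in control sclera and 6.65, 6.47 and 6.82 in myopic sclera. It was the only 3p arm besides miR-30c-1-3p without overlap between the tissues, and it was higher in the retina by 0.76 ± 0.16 in control eyes and by 0.44 ± 0.16 in myopic eyes (SE; adjusted p = 0.00211 and 0.0289, limma). MiR-30a-3p was at 7.13 to 7.63 on the retina arrays and 7.10 to 7.32 on the sclera arrays. MiR-30b-3p was at 4.79 to 5.95 and 4.93 to 5.64, and miR-30c-2-3p at 5.15 to 6.16 and 5.11 to 5.66, in the same order. These 3 overlapped between the tissues, with differences of 0.24, 0.25 and 0.38 in control eyes and of 0.06, -0.06 and 0.10 in myopic eyes, none of which passed the test (adjusted p = 0.126 to 0.413 in control eyes and 0.662 to 0.859 in myopic eyes, limma).

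**Figure D2:**
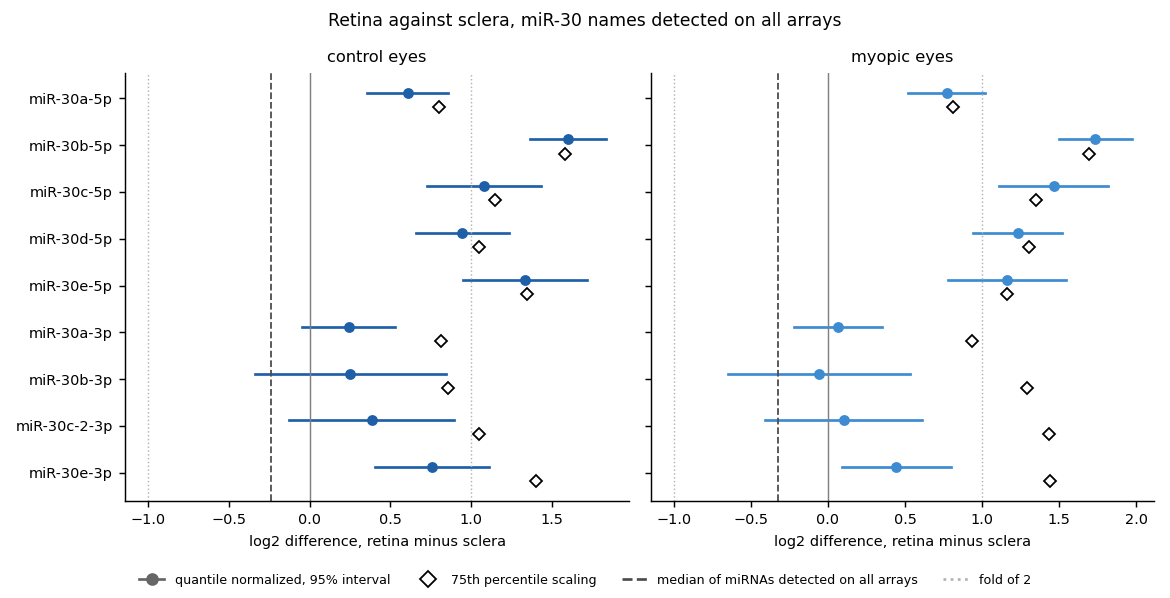
Log2 difference between retina and sclera (x axis) in control eyes (left) and myopic eyes (right) for the 9 miR-30 names detected on all arrays. Filled points with bars are the limma estimates and 95% intervals after quantile normalization, diamonds the estimates with 75th percentile scaling, the dashed line is the median of the 246 miRNAs detected on all arrays and dotted lines mark a fold of 2; all names from the 5p arm lie above 0 under both scalings, and the 3p arms move from 0.24 to 0.76 up to 0.81 to 1.40 in control eyes.

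With 75th percentile scaling the 3p arms had larger differences between the tissues. MiR-30a-3p was then higher in the control retina by 0.81, miR-30b-3p by 0.86, miR-30c-2-3p by 1.05 and miR-30e-3p by 1.40 (adjusted p = 0.000721 or less, limma), and in myopic eyes the same 4 names were higher by 0.94 to 1.44. The number of miR-30 names called was 7 in control eyes and 8 in myopic eyes under this scaling, all higher in the retina. Of all miRNAs, 54.6% and 62.8% were called, and 36.1% and 44.2% were called as higher in the retina. Relative to the median of the 246 miRNAs these 4 names were higher in the control retina by 0.48 to 1.00 with quantile normalization and by 0.68 to 1.27 with 75th percentile scaling. The direction relative to the median was the same under both scalings.

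MiR-30c-1-3p was the only member not detected in the sclera. The total gene signal before normalization was 146, 60.7 and 12.3 in control retina and 208, 172 and 62.8 in myopic retina, whereas no probe was detected on any of the 6 sclera arrays. On the scale of quantile normalized levels, it stood at 6.58, 5.80 and 3.94 in control retina and at 6.89, 6.13 and 5.36 in myopic retina. Its mean was compared with the lowest detected signals of the sclera arrays after 75th percentile scaling. It was at least 7.66-fold higher in the control retina and at least 20.5-fold higher in the myopic retina. Control retina 3 alone stood at 3.08 on this log2 scale, against a mean limit of 2.14 in the control sclera. No p-value is given for these bounds, because all sclera values stood at the floor. In both retina groups the array of slide 1 had the highest level and that of slide 3 the lowest, a range of 2.64 in control retina. MiR-30c-2-3p, which shares the seed of miR-30c-1-3p, went the opposite way in control retina, with 5.23, 5.91 and 6.16. MiR-30a-3p, miR-30b-3p and miR-30e-3p rose over the same arrays, so the rise is not particular to miR-30c-2-3p. With 75th percentile scaling the rise of miR-30c-2-3p was smaller, with 5.48, 5.65 and 5.76. The contrast with miR-30c-1-3p is a description, with no test.

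The arms of a hairpin come from the same transcript, and the difference between 5p and 3p within an array was compared between the tissues for the 4 pairs with both names detected on all arrays. For miR-30c the pair is miR-30c-5p, which both of its hairpins yield, and miR-30c-2-3p, so that it is not a difference between arms of a particular hairpin. After quantile normalization the 5p name exceeded the 3p name by more in the retina than in the sclera for each pair. For miR-30b the difference between 5p and 3p was 6.26 ± 0.55 in retina and 4.69 ± 0.28 in sclera (SD, n = 6 arrays each; exact permutation test, two-sided, adjusted p = 0.00667). The retina arrays ranged from 5.39 to 6.70 and the sclera arrays from 4.13 to 4.84, without overlap. The difference between tissues was 1.57 for miR-30b, 1.03 for miR-30c-2, 0.65 for miR-30e and 0.54 for miR-30a, with an adjusted p of 0.00667 for the first 3 and 0.01 for miR-30a in the same exact test.

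Of the 4 pairs, only miR-30b passed this test with 75th percentile scaling, in which the difference of the arms within an array does not depend on the scaling. The 5p arm of miR-30b then exceeded the 3p arm by 6.05 ± 0.05 in retina and 5.49 ± 0.34 in sclera (SD, n = 6 arrays each), a difference of 0.56 with an adjusted p of 0.02 in the exact permutation test. Paired by pool, it had the same direction in 6 of 6 pairs of arrays but did not pass after adjustment (p = 0.0312, the smallest possible, adjusted p = 0.125, exact paired permutation test). Both exact tests treated the control and myopic arrays of a pool number as independent. These arrays share a slide and a mouse identifier, so that the p-values may be too small. Retina arrays ranged from 6.00 to 6.15 and sclera arrays from 4.82 to 5.75, so that the tissues did not overlap, with the lowest value on control sclera 3. The total gene signal of miR-30b-3p was only 9.30 to 21.5 on the sclera arrays, whose lowest detected signals were 2.41 to 3.32. Whether this weak signal has a part in the difference was not tested. For miR-30c-2 the difference between tissues was 0.0043, for miR-30a -0.07 and for miR-30e -0.17, none of which passed the test (adjusted p = 0.955, 0.447 and 0.15, exact permutation test). Within the retina, the 6 arrays spanned 3.43 to 3.49 for miR-30e and 4.19 to 4.27 for miR-30a on this scale, whereas they spanned 3.37 to 3.95 and 3.92 to 4.63 after quantile normalization.

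**Figure D3:**
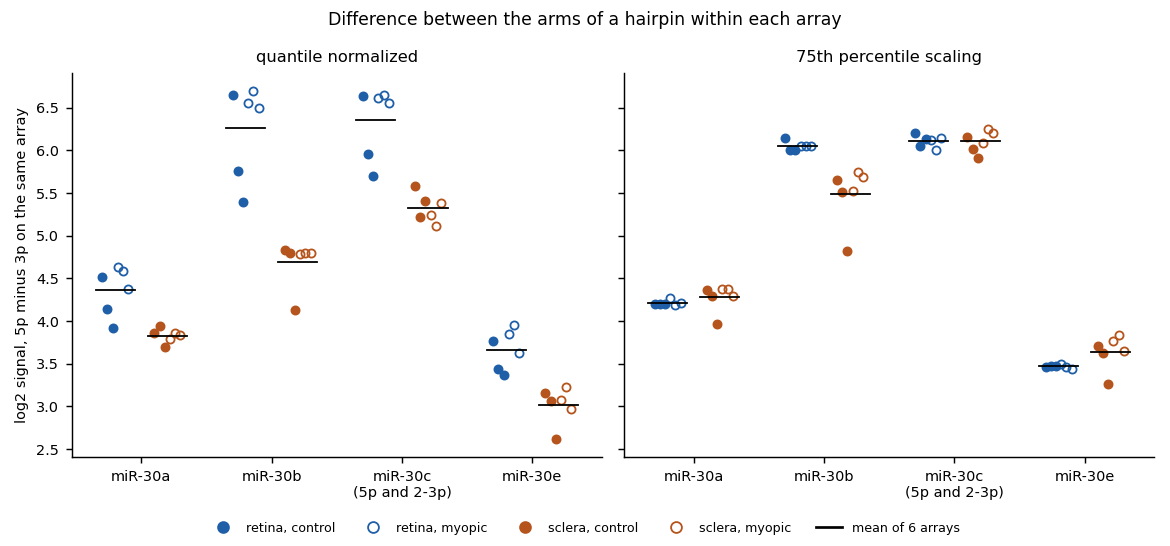
Log2 signal of the 5p arm minus that of the 3p arm on the same array (y axis) for 4 pairs of miR-30 names (x axis; miR-30c-5p comes from both miR-30c hairpins), after quantile normalization (left) and with 75th percentile scaling (right). Filled circles are control and open circles myopic arrays, blue retina and brown sclera, and black lines are means of 6 arrays; on the left all 4 pairs have a larger mean in retina, and on the right the tissues do not overlap for miR-30b, at 6.05 in retina against 5.49 in sclera.

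Form deprivation was not followed by a called change of any miR-30 name in the retina. Of all 443 miRNAs, 0.226% were called in this comparison, and 0 of the 10 names were. The names from the 5p arm differed between myopic and control retina by -0.02 to 0.19, with a median of 0.05, and the median of all miRNAs tested was -0.12. The 95% interval was -0.19 to 0.30 for miR-30a-5p, -0.19 to 0.28 for miR-30b-5p, -0.38 to 0.33 for miR-30c-5p, -0.10 to 0.48 for miR-30d-5p and -0.37 to 0.39 for miR-30e-5p. All 5 intervals thus include 0 and lie within a fold of 2 in either direction.

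The 3p arms detected on all arrays had lower values in myopic than in control retina after quantile normalization, without passing the test. The differences were -0.60 ± 0.26 for miR-30b-3p, -0.53 ± 0.23 for miR-30c-2-3p, -0.28 ± 0.13 for miR-30a-3p and -0.28 ± 0.16 for miR-30e-3p (SE; adjusted p = 0.157 to 0.27, limma). At an unadjusted p under 0.05 there were 2 names, miR-30b-3p and miR-30c-2-3p, against 29.3% of all miRNAs. Control and myopic arrays overlapped for all 10 names, and 14.4% of all miRNAs had no overlap. MiR-30b-3p stood at 4.91, 5.72 and 5.95 in control retina and at 4.93, 4.79 and 5.06 in myopic retina, so that only pools 2 and 3 differed, by -0.94 and -0.89 against 0.02 in pool 1. With control retina 1 left out, the 4 names passed an adjusted p of 0.05 with differences of -0.92 for miR-30b-3p, -0.80 for miR-30c-2-3p, -0.41 for miR-30e-3p and -0.40 for miR-30a-3p (limma), whereas with all arrays 0 names and 0.451% of all miRNAs did. In the fit without control retina 1 the median of the 246 miRNAs was -0.26, and the share of all miRNAs that passed is not given. Control retina 2 and 3 had the highest summed level of the 5 fibroblast and smooth muscle miRNAs, 6.96 and 8.26, against 5.98 on control retina 1 and 5.71 to 6.23 on the myopic arrays, and their part in the result was not tested. With 75th percentile scaling the differences of these 4 names were -0.06 to -0.01, and relative to the median of the 246 miRNAs, -0.21, they were -0.39 to -0.07 after quantile normalization. MiR-30c-1-3p was higher in the myopic retina in all 3 pools, by 0.31, 0.34 and 1.42, with a mean difference of 0.69 ± 0.60 that did not pass the test (SE; adjusted p = 0.487, limma). Its difference was 1.35 with 75th percentile scaling, with 0.43, 1.12 and 2.48 in the pools, and did not pass either (adjusted p = 0.56, limma).

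**Figure D4:**
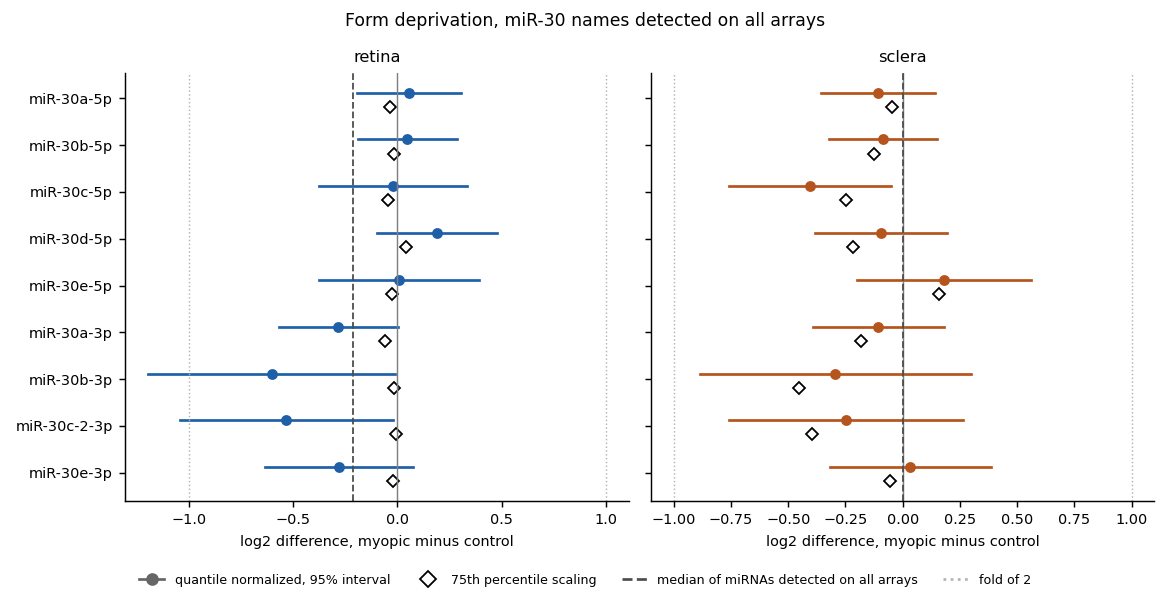
Log2 difference between myopic and control eyes (x axis) in retina (left) and sclera (right) for the 9 miR-30 names detected on all arrays. Filled points with bars are limma estimates with 95% intervals after quantile normalization, diamonds estimates with 75th percentile scaling, and the dashed line is the median of the 246 miRNAs detected on all arrays, which is -0.21 in the retina; no name passed the test in either tissue.

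In the sclera 0 of the 10 names and 0.0% of all miRNAs were called, and 1 name, miR-30c-5p, had an unadjusted p under 0.05, against 2.93% of all miRNAs. MiR-30c-5p was lower in the myopic sclera in all 3 pools, by -0.46, -0.22 and -0.54, with a mean difference of -0.40 ± 0.16 (SE; adjusted p = 1, limma). Its control and myopic arrays overlapped, at 10.46 to 11.07 and 10.24 to 10.53. With 75th percentile scaling its difference was -0.25. The remaining names from the 5p arm differed by -0.11 to 0.18 and the 4 detected 3p arms by -0.29 to 0.03, with adjusted p-values of 1 by limma. The groups did not overlap for miR-30d-5p, miR-30b-3p and miR-30c-2-3p, all lower in the myopic sclera, which is the case for 2.48% of all miRNAs. These 3 names had control sclera 3 as their highest control array, and their differences were -0.10, -0.29 and -0.25. They were -0.22, -0.45 and -0.40 with 75th percentile scaling, and miR-30d-5p then overlapped between the groups. Without control sclera 3 they were -0.043, -0.11 and -0.11.

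The change with form deprivation was also compared between the tissues. It differed between retina and sclera in a called way for 0 of the 10 names and 0.226% of all miRNAs, and 0 names had an unadjusted p under 0.05, against 8.13% of all miRNAs. The estimates ranged from -0.31 for miR-30e-3p to 0.69 for miR-30c-1-3p, with adjusted p-values from 0.38 to 0.634 by limma. The number of names called stayed at 0 for the retina, the sclera and the difference in response under every alternative, the linear model without moderation included. The 4 comparisons and this one share their arrays.

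MiR-384-5p, which is encoded on the X chromosome and carries the same seed as the 5p arms, was likewise found in the retina only. It stood at 7.52, 7.66 and 7.52 in control retina and at 7.25, 7.28 and 7.56 in myopic retina, and it was not detected on any sclera array. Its mean was at least 41.1-fold higher in the control retina than in the control sclera. Between myopic retina and myopic sclera this bound was 44.4-fold. No p-value is given for these bounds, because all sclera values stood at the floor. The difference of miR-384-5p between myopic and control retina was -0.20 ± 0.11 (SE, adjusted p = 0.27, limma) and -0.01 with 75th percentile scaling. By position, 12 of 22 bases are identical to miR-30a-5p.

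The 5 miRNAs with the pattern most like the mean of the 5p members over the 12 arrays were miR-181b-5p, miR-181a-5p, miR-210-3p, miR-9-3p and miR-181c-5p, with Pearson correlations of 0.994 to 0.999 among 237 miRNAs detected on all arrays. All 5 were higher in the retina, by 1.95 to 3.73 in control eyes, and these correlations are set mainly by the shared gap between the tissues. When deviations from the tissue means were used instead, 3 of the 5 remained among the first 5, and the correlation was 0.937 for miR-181b-5p, 0.746 for miR-181a-5p and 0.654 for miR-210-3p. The 5p members did not all move together in these deviations. Correlations between members ranged from -0.72 for miR-30c-5p with miR-30e-5p to 0.81 for miR-30a-5p with miR-30b-5p. The negative value leans on control sclera 3. There miR-30c-5p had its highest sclera level, 11.07, and miR-30e-5p its lowest, 9.13. The correlation without this array was not computed. These are descriptions over arrays that share slides, with no test.

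The probes of a name from the 5p arm gave nearly the same difference between the tissues, while those of some 3p names did not. Each name from the 5p arm was read by 2 or 3 probes of different length, whose differences between control retina and control sclera lay within 0.05 of each other on the 75th percentile scale. For miR-30b-5p the probes gave 1.58 and 1.59. The 2 probes of miR-30c-2-3p gave 0.84 and 1.61 in control eyes, and 1.22 and 1.66 in myopic eyes. Of the 4 probes of miR-30b-3p, 3 gave 0.70 to 0.91, and the shortest, at 18 bases, was at the floor in the sclera and gives no difference. Most probes of miR-30c-1-3p were at the floor in the control sclera as well, and no difference is given for them. The log2 values that the authors deposited for the same arrays gave the same direction as the levels reported here for all 10 names in both tissue comparisons, with differences of 1.51 for miR-30b-5p and 0.70 for miR-30a-5p in control eyes.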

How the data were processed

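The series comprises 12 Agilent mouse miRNA arrays (release 15 per the methods), 3 for each of 4 groups, assigned from the sample labels. The labels speak of single mice and the methods of pools of 3 eyes, and the latter is used. The deposited array files are Agilent Feature Extraction output, a background-corrected fluorescence intensity with no normalization between arrays, in which a miRNA without a detected probe has a total gene signal of 0.1. The authors also deposited log2 values, made from the same signals with a minimum of 0.5 and quantile normalization; the submitters' notes name Partek 6.6. That table was used as an alternative and correlated at 0.999 with the levels computed here over 437 miRNAs, with a median absolute difference of 0.12.

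Here total gene signals were floored at 0.5, quantile normalized across the 12 arrays over 696 names, and put on a log2 scale. Names without detection on any array (253) were dropped, and the remaining 443 entered a joint limma fit of the 4 groups with moderated variances (limma 3.58.1, R 4.3.3, 8 residual degrees of freedom), with two-sided p-values and Benjamini-Hochberg adjustment over all 443. A floored group sets the fitted size, so a bound is given instead: after division by the 75th percentile, the mean of the higher group against the lowest detected signal, or the miRNA's own brightest probe if higher, of each array with no detection. Differences between arms and between members were tested with exact permutation tests (400 arrangements, or 64 when paired by pool) in Python 3.11.15 with numpy 2.4.6. In the paired form, the control and the myopic pair of a pool number were flipped separately, as if independent. Figures were drawn with matplotlib 3.10.9. The fit was also run on simulated arrays with independent noise, without the pairing of pools or effects of a slide. The outcome is not given, and no result here rests on it. Precision is limited by 3 arrays per group.

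Named miRNAs were all names of the family, other names with the same 5p seed, the 5 most correlated with the mean of the 5p members, and the marker lists. The members and lists were chosen with earlier results of these data known. Arrays with the same pool number share a slide and, per the labels, a mouse identifier, so the numbers pair the samples; across 246 miRNAs, deviations from the group means correlated at 0.38, -0.46 and 0.59 in the retina pairs and at -0.14, -0.16 and -0.00 in the sclera pairs. Of the blood markers, 2 of 4 names were on the array. The summed log2 level was 3.19 to 5.95 in retina and 9.07 to 9.41 in sclera for blood, 6.69 to 7.94 and 10.91 to 11.85 for skeletal muscle, and 13.71 to 13.89 and 12.33 to 13.75 for pigment epithelium.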

Additional observations from a re-analysis of the deposited data

How the results depend on the processing

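With 75th percentile scaling, 7 miR-30 names were called between retina and sclera in control and 8 in myopic eyes. Of all miRNAs, 54.6% and 62.8% were called under it, and 36.1% and 44.2% were called as higher in the retina, the direction of these names. With normexp background correction the numbers were 2 and 3, and without normalization, chosen after seeing the data, 10 and 10. Without normalization the median of the 246 miRNAs was itself 1.17 in control and 1.58 in myopic eyes, above the fold of 2. Leaving out 1 array gave 3 to 5 names in control and 5 to 5 in myopic eyes. The share of all miRNAs called is not given for these other settings. With 75th percentile scaling the retina minus sclera difference between arms was -0.067 for miR-30a, 0.0043 for miR-30c-2 and -0.17 for miR-30e. Without the arrays of pool 3, also chosen after seeing the data, it was 0.61 for miR-30a, 1.61 for miR-30b, 1.18 for miR-30c-2 and 0.62 for miR-30e, with p = 0.0556 in the exact permutation test, the smallest it can give. Leaving out 1 array gave 0.48 to 0.63, 1.46 to 1.70, 0.95 to 1.17 and 0.56 to 0.70 for these hairpins. With array weights 5 miR-30 names had an adjusted p under 0.05 (limma) between myopic and control retina, and 4 in the comparison of the responses, against 0 and 0. Under these weights the median of the 246 miRNAs was -0.30 and -0.37 in the same comparisons. Without control retina 1, 4 names passed between myopic and control retina, with a median of -0.26. The share of all miRNAs that passed is not given for these fits, so the numbers cannot be set against it. Of the 5 miRNAs most like the 5p members, 3 remained with deviations from the tissue means.

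Between the tissues in control eyes, miR-30c-5p fell under the fold of 2 with processed spot signals (0.97), normexp (0.84) and without control sclera 2 (0.91), and miR-30d-5p passed it with 75th percentile scaling (1.05), the authors' log2 values (1.00), array weights (1.07) and without control retina 3 (1.05). In myopic eyes, miR-30e-5p fell under it with normexp (0.89), and miR-30b-3p turned to 1.29 with 75th percentile scaling, 0.17 with processed spot signals, 0.000357 with normexp and 2.48 without normalization. With normexp the difference of miR-30c-1-3p was 0.42 in control and 0.57 in myopic eyes. For miR-384-5p the lowest difference under any alternative was 1.19 in control eyes and 0.999 in myopic eyes, the latter under the fold of 2.

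Differences between myopic and control retina that changed sign were -0.035 for miR-30a-5p, -0.016 for miR-30b-5p and -0.027 for miR-30e-5p with 75th percentile scaling, -0.0085 for miR-30b-5p and 0.0013 for miR-30c-5p with normexp, and 0.0135 for miR-30c-5p with processed spot signals. Without normalization they were 0.060 for miR-30c-5p, 0.047 for miR-30a-3p, 0.088 for miR-30b-3p, 0.10 for miR-30c-2-3p, 0.088 for miR-30e-3p and 0.10 for miR-384-5p. In the sclera miR-30e-5p turned to -0.030 with array weights, and miR-30e-3p to -0.056 with 75th percentile scaling, -0.12 with processed spot signals, -0.028 with normexp, -0.049 with array weights and -0.10 without normalization. The difference in response between the tissues turned to 0.042 for miR-30e-5p with array weights, to 0.12, 0.43, 0.39 and 0.037 for miR-30a-3p, miR-30b-3p, miR-30c-2-3p and miR-30e-3p with 75th percentile scaling, and to 0.27, 0.58, 0.54 and 0.19 for the same names and 0.10 for miR-384-5p without normalization. Between 5p members, miR-30c-5p minus miR-30e-5p turned to -0.0069 with 75th percentile scaling and -0.058 with processed spot signals, and miR-30d-5p minus miR-30e-5p to 0.030 without pool 3. The cause of these changes was not tested.

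Leaving out 1 array gave sign changes within -0.0143 to 0.11 (miR-30a-5p), -0.0096 to 0.0995 (miR-30b-5p), -0.0082 to 0.0295 (miR-30e-5p) and -0.061 to 1.29 (miR-30c-1-3p) for myopic against control retina, -0.037 to 0.29 (miR-30e-5p) and -0.051 to 0.12 (miR-30e-3p) in the sclera, -0.0046 to 0.11 (miR-30a-3p) and -0.12 to 0.019 (miR-30b-3p) between the tissues in myopic eyes, -0.28 to 0.045 (miR-30e-5p) and -0.061 to 1.29 (miR-30c-1-3p) for the difference in response, and -0.044 to 0.22 for miR-30c-5p minus miR-30e-5p.

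When the pool number entered as a replicate block, 4 names were called between the tissues in control eyes, 5 in myopic eyes and 0 in the other comparisons, as without it. The share of all miRNAs called with the block is not given, so these numbers cannot be set against it. The arm differences had p = 0.0312 in the exact permutation test within pools, the smallest of 64 arrangements. The 7 differences between 5p members that passed the unpaired test had adjusted p-values of 0.0521 to 0.0781 when paired and of 0.0794 without pool 3, where 0.0556 is the smallest p. Paired and with 75th percentile scaling, chosen after seeing the data, the arm differences were -0.067, 0.56, 0.0043 and -0.17 for miR-30a, miR-30b, miR-30c-2 and miR-30e, with an adjusted p of 0.125 for miR-30b in the exact permutation test, and miR-30c-5p minus miR-30e-5p was -0.0069. For miR-30b-5p the blocked adjusted p was 1.37e-05 in control eyes (limma). A miRNA at the floor on all arrays of a group, as miR-30c-1-3p and miR-384-5p in the sclera, has only a bound there.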
